A study of Mus musculus with 9 samples.

Results

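The expression of 9 genes for poly(ADP-ribose) polymerases and their single-strand break repair partners was described in mammary tumors of mice treated with the PARP inhibitor Talazoparib (TLZ). The genes were *Parp1*, *Parp2*, *Parp3*, *Parg*, *Tnks*, *Tnks2*, *Xrcc1*, *Lig3* and *Polb*. They were found by matching Ensembl identifiers to symbols, and all 9 were present among the 35275 genes of the count table. Each had 1 row.

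RNAseq was performed on 9 mammary gland tumors of Brca1Co/Co;MMTV-Cre;p53+/- mice. In this genotype, shared by every group, Cre under the MMTV promoter deletes *Brca1* mainly in mammary epithelium, and 1 *Trp53* allele is lost throughout. Which other cells of the tumor keep *Brca1* was not tested. The 3 control mice received saline (A3673, A3685 and A3688, called saline 1 to 3). The 3 i.v. TLZ mice received free drug at 0.33 mg/kg (B3638, B3684 and B3700, called i.v. TLZ 1 to 3), and the 3 NanoTLZ mice received the same dose in a liposome (C3519, C3669 and C3698, called NanoTLZ 1 to 3). All were dosed 5 times, 3 times a week, from the time that a small tumor was measurable. Tumors treated with empty liposomes were not analysed here, so drug and carrier cannot be told apart in NanoTLZ, and the ages of the mice are not given in the sources used here.

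PARP1 and PARP2 bind broken DNA and build chains of poly(ADP-ribose) (PAR) on themselves and nearby proteins. XRCC1 is drawn to these chains and brings DNA polymerase beta and DNA ligase III to fill and seal the gap, while PARG removes the chains. PARP inhibitors such as Talazoparib block the catalytic site and hold PARP1 and PARP2 on DNA, and cells without BRCA1 tolerate the resulting lesions poorly.

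Counts on genes ranged from 17538380 to 21194980 per tumor, and every one of the 9 genes had at least 109 counts in every tumor. Levels are given as CPM, which are counts scaled to a common library size by TMM, and can be compared between tumors for 1 gene. Saline 3 (A3688) stood apart from the other tumors. Its 14 proliferation genes summed to 2888 CPM against 441 to 1773 CPM elsewhere, and its basal keratin *Krt5* was at 1849 CPM against at most 72.9 CPM in the others. Many fold changes against saline are given with and without it, but not all of those that it moves. All 8 epithelial markers were detected in every tumor of this mammary tissue. Since whole tumors were sequenced, fewer cells of a type and less RNA per cell cannot be told apart.

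None of the 9 genes passed an adjusted p of 0.05 in any comparison with edgeR, where the share called over all 15821 genes tested was 0% for i.v. TLZ against saline, 0.00632% for NanoTLZ against saline, 0% between the 2 treatments and 0.019% for both treatments against saline. The direction of their differences is therefore given below as values, with their intervals. The same 3 saline tumors served as controls for both treatments, so the 2 comparisons are not independent.

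*Parp1*, the main target of Talazoparib and the most active PAR-forming enzyme after DNA damage, lies on chromosome 1 from 180568924 to 180601254 on the plus strand (GRCm38). It was at 172 CPM in saline 1, 135 CPM in saline 2 and 156 CPM in saline 3. In the i.v. TLZ tumors it was at 86.1, 52.3 and 115 CPM, and in the NanoTLZ tumors at 121, 91.7 and 127 CPM. No treated tumor reached the lowest saline level, and *Parp1* was the only one of the 9 genes of which this was true. In the NanoTLZ comparison, 8.13% of all genes were likewise lower without overlap. The 2 treated groups overlapped, with the lowest level in i.v. TLZ 2.

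The mean level of *Parp1* was 154.5 CPM ± 18.7 (SD, n = 3) in saline, 84.5 CPM ± 31.4 (SD, n = 3) after i.v. TLZ and 113 CPM ± 18.8 (SD, n = 3) after NanoTLZ. Its log2 fold change was -0.87 (95% interval -1.57 to -0.17, edgeR adjusted p = 0.443) with i.v. TLZ and -0.45 (95% interval -1.14 to 0.24, adjusted p = 0.653) with NanoTLZ. Over both treatments it was -0.66 (SE 0.26, adjusted p = 0.347). Among all tested genes, 2.66% were likewise lower in every treated tumor than in every saline tumor. Without A3688 the log2 fold change of *Parp1* over both treatments was -0.63.

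Promoter sequences of *Parp1*, *Lig3* and *Parp3* are shown because these were the genes among the 9 whose levels in at least 1 treated group did not overlap those of saline. Each runs from 250 bases before the RefSeq start site to 50 bases after it in GRCm38.p6, 5′ to 3′ on the strand of the gene. Capitals mark GC boxes, the letters GGGCGG on either strand, which Sp1-type factors can bind. The windows are chr1:180568641-180568940 on the plus strand, chr11:82780859-82781158 on the plus strand and chr9:106476900-106477199 on the minus strand.
Parp1: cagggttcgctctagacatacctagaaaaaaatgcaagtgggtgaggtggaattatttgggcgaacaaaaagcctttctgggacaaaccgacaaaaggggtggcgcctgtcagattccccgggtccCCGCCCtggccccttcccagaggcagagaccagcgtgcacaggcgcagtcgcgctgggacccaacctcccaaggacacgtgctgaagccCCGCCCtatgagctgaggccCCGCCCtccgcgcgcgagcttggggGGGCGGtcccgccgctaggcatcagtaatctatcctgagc
Lig3: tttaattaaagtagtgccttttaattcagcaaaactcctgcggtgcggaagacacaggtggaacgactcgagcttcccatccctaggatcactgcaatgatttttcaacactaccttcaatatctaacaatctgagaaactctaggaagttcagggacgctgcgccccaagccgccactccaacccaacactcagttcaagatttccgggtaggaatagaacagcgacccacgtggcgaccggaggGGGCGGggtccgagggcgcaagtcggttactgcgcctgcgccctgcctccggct
Parp3: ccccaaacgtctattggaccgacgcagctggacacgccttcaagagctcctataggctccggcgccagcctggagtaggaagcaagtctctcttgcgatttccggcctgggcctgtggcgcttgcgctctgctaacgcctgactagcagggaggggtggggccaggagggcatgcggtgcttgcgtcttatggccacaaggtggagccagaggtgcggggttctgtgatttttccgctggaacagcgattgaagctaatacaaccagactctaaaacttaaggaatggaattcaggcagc
The *Parp1* window held 4 GC boxes and a GC content of 62.0%, the *Lig3* window 1 GC box and 54.0%, and the *Parp3* window 0 GC boxes and 57.7%. Of 27025 RefSeq promoter windows of this length, 35.9% held at least 1 GC box. The E2F letters TTTCGCGC or TTTGGCGC, on either strand, were in 0.833% of all windows and in none of the windows of the 7 genes of the group that had one. The search could not be made for *Tnks* and *Polb*. The *Xrcc1* window, chr7:24546449-24546748, lies within the annotated gene, which starts at 24546289 on the plus strand. These matches describe the letters of the windows only.

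*Parp2* encodes the second enzyme that Talazoparib holds on DNA and lies on chromosome 14 from 50807841 to 50821301. It was at 15.6, 17.2 and 32.8 CPM in the saline tumors, 21.4, 19.5 and 17.6 CPM after i.v. TLZ, and 16.8, 19.5 and 23.6 CPM after NanoTLZ. Its highest level was in A3688, and all 6 treated tumors lay within the saline range. The log2 fold change over both treatments was -0.15 (95% interval -0.81 to 0.52, adjusted p = 0.856) and turned to 0.29 without A3688. Without that tumor, *Parp2* was higher in every i.v. TLZ tumor than in saline 1 and 2, as were 11.1% of all genes in that comparison.

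*Parp3*, which attaches single ADP-ribose units and acts at double-strand breaks, lies on chromosome 9 from 106470322 to 106476949 and was the only one of the 9 genes with a higher mean after treatment. It was at 27.2 CPM in saline 1, 25.3 CPM in saline 2 and 5.00 CPM in saline 3. After i.v. TLZ it was at 73.8, 25.0 and 28.8 CPM, and after NanoTLZ at 31.1, 44.7 and 40.8 CPM. All 3 NanoTLZ tumors were above all saline tumors, as were 7.82% of all genes in that comparison, and 1 i.v. TLZ tumor fell within the saline range. The low value of A3688 and the high value of i.v. TLZ 1 set much of the difference.

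The log2 fold change of *Parp3* was 1.15 (SE 0.61, adjusted p = 0.527) with i.v. TLZ and 1.02 (SE 0.60, adjusted p = 0.609) with NanoTLZ, and both 95% intervals reached below 0, to -0.20 and -0.32. Over both treatments it was 1.09 with all tumors and 0.65 without A3688. Without that tumor it was 0.70 with i.v. TLZ and 0.60 with NanoTLZ. Within single tumors, the ratio of *Parp3* to *Parp1* counts, chosen after the values were seen, was 0.158, 0.187 and 0.0320 in saline. It was 0.858, 0.479 and 0.250 after i.v. TLZ, and 0.257, 0.487 and 0.322 after NanoTLZ. This ratio does not depend on the scaling of the libraries and was higher in every treated than in every saline tumor, but 14.8% of all tested genes had the same separation when divided by *Parp1*.

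**Figure D1:**
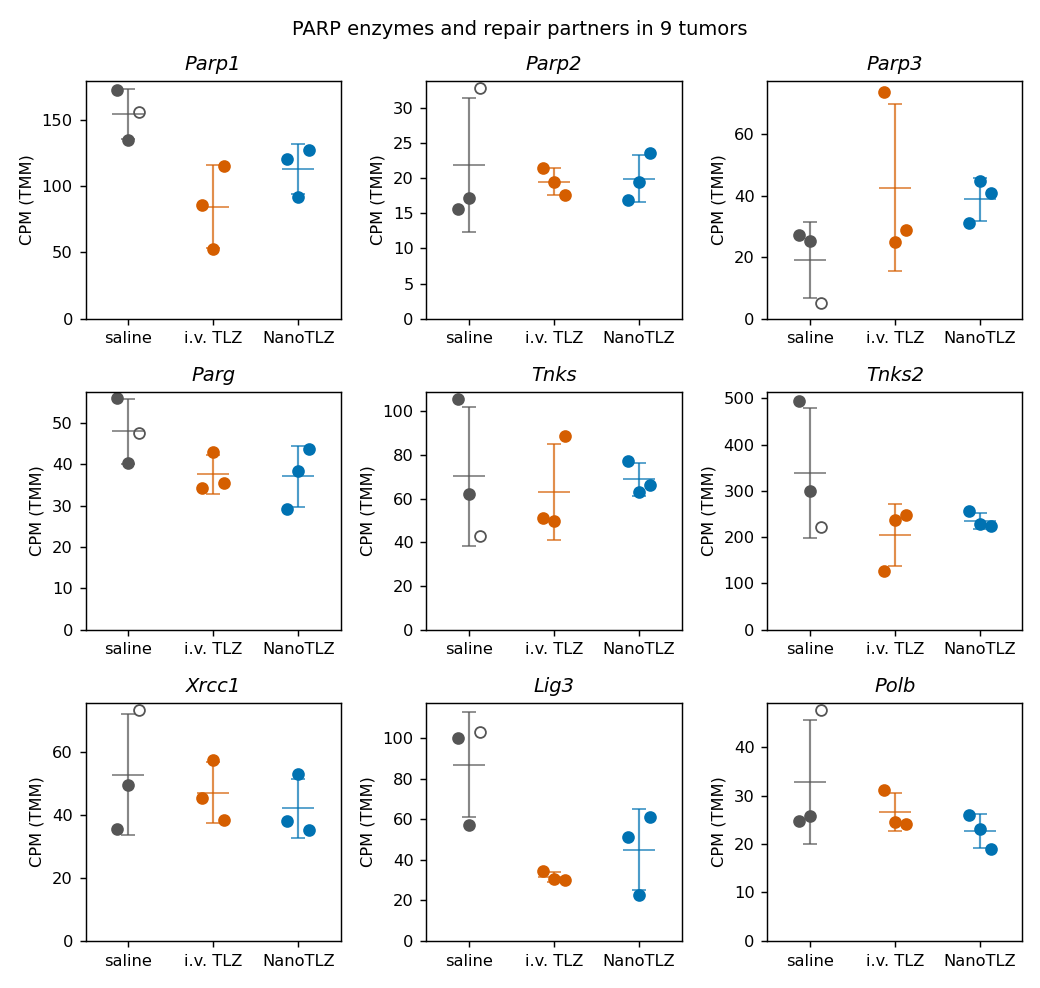
Level of each of the 9 genes in each tumor (points, CPM after TMM scaling, linear axis from 0) by group, with the group mean and SD (bars, n = 3); the open point is saline 3 (A3688). All 6 treated tumors are below the 3 saline tumors for *Parp1*. A3688 is the highest tumor for *Parp2*, *Xrcc1*, *Lig3* and *Polb* and the lowest for *Parp3* and *Tnks*.

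Tankyrases are PARP enzymes that modify telomere and Wnt pathway proteins and are not the main targets of Talazoparib. *Tnks*, on chromosome 8 from 34826460 to 34965690, was at 105, 62.2 and 43.1 CPM in saline, 51.1, 49.6 and 88.6 CPM after i.v. TLZ, and 77.5, 63.1 and 66.2 CPM after NanoTLZ. All treated tumors lay within the saline range, and the log2 fold change over both treatments was -0.09 (95% interval -0.79 to 0.61, adjusted p = 0.925). Without saline 1 it was 0.34, and without A3688, the lowest tumor for *Tnks*, it was -0.32.

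*Tnks2*, on chromosome 19 from 36834232 to 36893477, was at 495 CPM in saline 1, 299.7 CPM in saline 2 and 221 CPM in saline 3. It was at 127, 236 and 249 CPM after i.v. TLZ and at 256, 229 and 224 CPM after NanoTLZ. Only i.v. TLZ 1 was below the saline range, and the saline tumors differed more among themselves than the NanoTLZ tumors did. The log2 fold change over both treatments was -0.63 (SE 0.31, adjusted p = 0.414). It was -0.83 without A3688, when every treated tumor was below saline 1 and 2, and -0.23 without saline 1.

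*Parg*, the gene of the main PAR-degrading enzyme, lies on chromosome 14 from 32201949 to 32297550. It was at 56.1, 40.4 and 47.4 CPM in saline, 34.2, 42.9 and 35.5 CPM after i.v. TLZ, and 29.2, 38.3 and 43.7 CPM after NanoTLZ. Of the 6 treated tumors, 4 were below the lowest saline tumor. The log2 fold change was -0.35 with i.v. TLZ and -0.37 with NanoTLZ, with adjusted p of 0.64 and 0.655. *Parg* had the smallest biological variation of the 9 genes in the edgeR fit, 28.2% against 52.4% for *Parp3* and a median of 41.9% over all genes.

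Of the repair proteins that act after PAR synthesis, *Lig3* differed more than *Xrcc1* and *Polb* did. It encodes DNA ligase III, the partner of XRCC1 and the ligase of mitochondria, and lies on chromosome 11 from 82781108 to 82804274. Its level was 100.3 CPM in saline 1, 57.0 CPM in saline 2 and 103 CPM in saline 3. After i.v. TLZ it was 34.4, 30.4 and 30.1 CPM, and after NanoTLZ 51.0, 22.5 and 61.1 CPM. All i.v. TLZ tumors were below all saline tumors and close to each other, and 1 NanoTLZ tumor was above the lowest saline tumor.

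The mean of *Lig3* was 86.8 CPM ± 25.9 (SD, n = 3) in saline, 31.6 CPM ± 2.38 (SD, n = 3) after i.v. TLZ and 44.9 CPM ± 20.0 (SD, n = 3) after NanoTLZ. The log2 fold change was -1.46 (95% interval -2.32 to -0.59, adjusted p = 0.417) with i.v. TLZ and -0.95 (95% interval -1.80 to -0.10, adjusted p = 0.552) with NanoTLZ. Over both treatments it was -1.20 (SE 0.32, adjusted p = 0.279), and it was -1.04 without A3688. Without that tumor it was -1.30 (SE 0.41) with i.v. TLZ and -0.78 (SE 0.41) with NanoTLZ. In the comparison of i.v. TLZ with saline, *Parp1* and *Lig3* were the genes of the 9 that were lower in every treated tumor, as were 5.2% of all genes. Without A3688, *Tnks2* joined them in that comparison, where 9.36% of all genes were lower without overlap, and joined *Parp1* over both treatments, where 5.33% were.

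The 3′ end of *Lig3* overlaps that of *Rffl*, a ubiquitin ligase gene on the opposite strand, over 1826 exonic bases, or 25.1% of the exonic length of *Lig3*. The strand setting of the counting is not given in the sources used here, so the part of this overlap in the *Lig3* counts was not tested. *Rffl* was at 14.5 to 29.0 CPM in saline, 19.9 to 25.4 CPM after i.v. TLZ and 25.6 to 43.3 CPM after NanoTLZ, and its mean was not lower in either treated group.

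*Xrcc1*, the scaffold of the pathway, lies on chromosome 7 from 24546289 to 24573440. It was at 35.5, 49.7 and 73.5 CPM in saline, 45.4, 57.6 and 38.4 CPM after i.v. TLZ, and 38.2, 52.9 and 35.2 CPM after NanoTLZ. The groups overlapped, A3688 was highest, and the log2 fold change over both treatments was -0.25 with all tumors and 0.08 without A3688.

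*Polb*, the gap-filling polymerase, lies on chromosome 8 from 22628126 to 22653435. It was at 24.8, 25.9 and 47.6 CPM in saline, 31.1, 24.5 and 24.1 CPM after i.v. TLZ, and 26.1, 23.1 and 19.0 CPM after NanoTLZ. A3688 was again highest, and the other 8 tumors lay between 19.0 and 31.1 CPM. The log2 fold change was -0.30 with i.v. TLZ (adjusted p = 0.764) and -0.53 with NanoTLZ (adjusted p = 0.621). Without A3688 these values were 0.076 and -0.13.

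As a group, 8 of the 9 genes had a log2 fold change below 0 in each treatment, where 52.4% of all genes did with i.v. TLZ and 56.1% with NanoTLZ. Over both treatments 8 of the 9 and 54% of all genes were below 0. This count rested on A3688, without which 5 of the 9 genes were below 0 with i.v. TLZ, 6 with NanoTLZ and 6 over both, where 46.7%, 48.9% and 47.7% of all genes were. The median log2 fold change of the 9 genes was -0.30 with i.v. TLZ and -0.37 with NanoTLZ, beside -0.03 and -0.09 over all tested genes. Without A3688 these medians were -0.35 and -0.25, beside 0.05 and 0.01. At an unadjusted p under 0.05, *Parp1* and *Lig3* were lower with i.v. TLZ and *Lig3* with NanoTLZ, where 5.47% and 5.49% of all genes were lower. Without A3688, *Tnks2* was added with i.v. TLZ and none of the 9 remained with NanoTLZ, where 4.19% and 3.26% of all genes were lower.

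The 2 formulations were compared directly at the same dose and schedule. NanoTLZ minus i.v. TLZ gave a log2 difference of 0.42 for *Parp1* (95% interval -0.27 to 1.12) and 0.50 for *Lig3* (95% interval -0.34 to 1.35). The other 7 genes differed by -0.22 to 0.21, and their intervals all included 0. None of the 9 genes passed the test, at an adjusted p of 1.0 for each, and the 2 groups overlapped for all 9, where 4.41% of all genes were lower in every NanoTLZ tumor and 3.2% higher. With 3 tumors a group the intervals still include differences of over 1 log2 unit for *Parp1*, *Parp3*, *Tnks2* and *Lig3*, so the formulations are not shown to act alike.

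**Figure D2:**
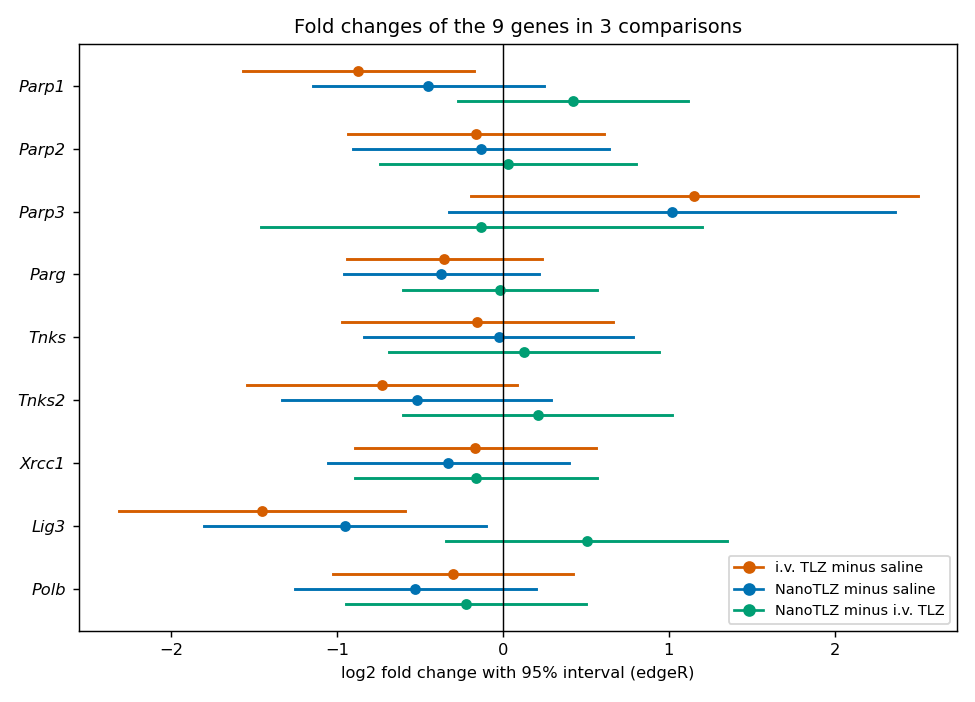
Log2 fold change (points) with its 95% interval (lines) from edgeR for each of the 9 genes, for i.v. TLZ minus saline, NanoTLZ minus saline and NanoTLZ minus i.v. TLZ. With all tumors, the intervals that lie below 0 are those of *Parp1* with i.v. TLZ and of *Lig3* with both treatments, before adjustment over all genes.

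**Figure D3:**
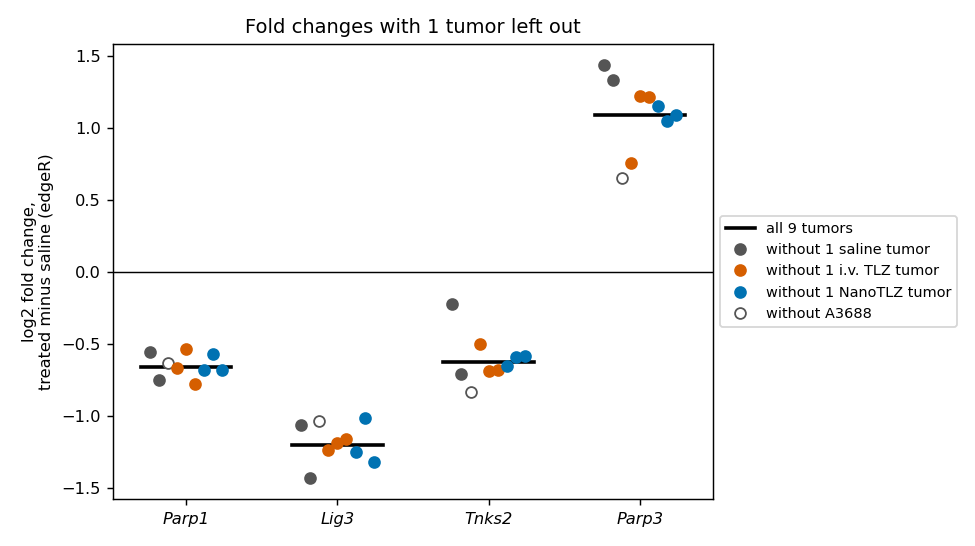
Log2 fold change of both treatments against saline (edgeR) for 4 genes with all 9 tumors (black bar) and with 1 tumor left out (points, by the group of that tumor; open, without A3688). *Parp1* stays between -0.78 and -0.54 and *Lig3* between -1.43 and -1.02, while *Tnks2* ranges from -0.83 to -0.23 and *Parp3* from 0.65 to 1.44.

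For a comparison between genes, CPM were divided by the length of the merged exons. In saline the highest levels were those of *Tnks2* at 32.5 CPM per kb (range 21.2 to 47.5) and *Parp1* at 29.2 CPM per kb (range 25.5 to 32.6), which overlapped. Next was *Lig3* at 11.9 CPM per kb (range 7.82 to 14.2), clear of both. The other 6 genes had means from 4.72 CPM per kb for *Tnks* to 9.07 for *Xrcc1*, and neighbours in this order overlapped.

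In single tumors, *Parp1* held rank 1 or 2 of the 9 genes by CPM per kb in all 9 tumors, and *Tnks2* held rank 1 in 6 tumors. *Parp3* held rank 1 in i.v. TLZ 1, at 20.0 CPM per kb, and held rank 3 in 4 of the 6 treated tumors. In the saline tumors it held rank 5, 6 or 9. *Lig3* held rank 3 or 4 in the saline tumors and rank 8 or 9 in 4 of the treated tumors.

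Among the 5 PARP family enzymes of the group, *Parp1* made up 38.5% ± 6.79 (SD, n = 3) of the summed CPM per kb in saline, 27.5% ± 6.66 (SD, n = 3) after i.v. TLZ and 32.9% ± 3.92 (SD, n = 3) after NanoTLZ. The share of *Parp3* ranged from 2.11% to 9.75% in saline and from 12.1% to 34.5% in the treated tumors, without overlap. The CPM of *Parp3* itself overlapped, with i.v. TLZ 2 at 25.0 CPM within the saline range. How many of all genes would separate in such a share was not counted. For the count ratio to *Parp1* alone, 14.8% of all tested genes separated in this direction. The shares of *Parp1*, *Parp2*, *Tnks* and *Tnks2* overlapped between saline and both treatments. Shares sum to a fixed total, so they do not vary independently.

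**Figure D4:**
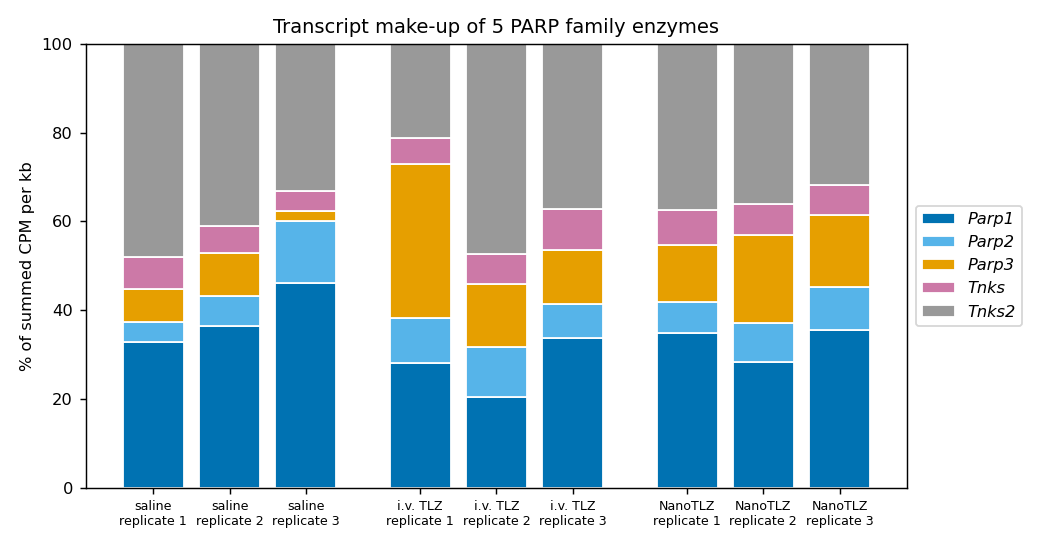
Share (%) of each of 5 PARP family genes in their summed CPM per kb of exon, 1 stacked bar per tumor. *Parp1* and *Tnks2* form most of each saline bar, and the *Parp3* segment is at most 9.75% in saline and at least 12.1% in every treated tumor. The CPM of *Parp3* itself overlapped between saline and i.v. TLZ.

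Genes around the 9 were described by lists. Of 11 other PARP family genes, 6 had a log2 fold change below 0 over both treatments and 0 were called, with a median of -0.10 beside -0.05 over all genes. At the ends of this list, *Parp16*, an enzyme of the endoplasmic reticulum, was at 0.75 (SE 0.26, adjusted p = 0.302) and *Parp14*, an interferon-inducible enzyme, at -0.74 (SE 0.59, adjusted p = 0.606). *Parp16* was at 12.2 to 15.1 CPM in saline, 25.0 to 39.0 CPM after i.v. TLZ and 16.8 to 20.1 CPM after NanoTLZ. Without A3688, 8 of the 11 genes were below 0, the median was -0.30, and *Parp14* was at -1.17.

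Of 8 genes for PAR removal, PAR readers and PARP cofactors, 7 were below 0 over both treatments and 0 were called, with a median of -0.51. *Hpf1*, the cofactor that directs PARP1 and PARP2 to serine, had the largest negative value, at -1.32 (SE 0.44, adjusted p = 0.292). It was at 162 CPM in A3688 and between 19.2 and 42.5 CPM in all other tumors, so that the saline mean rested on A3688, and without that tumor the value was -0.27. *Macrod1*, a hydrolase of ADP-ribose on proteins, was the only gene of the list above 0, at 0.22 (SE 0.50), and was at 1.34 without A3688. Without it, 6 of the 8 genes were below 0 and the median was -0.21.

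Of 7 tankyrase partners, 4 were below 0 over both treatments and 0 were called, with a median of -0.01. *Terf1*, the gene of a telomere protein, was at -1.09 (SE 0.33, adjusted p = 0.284). It ranged from 22.4 to 48.8 CPM in saline, 10.5 to 23.3 CPM after i.v. TLZ and 14.0 to 17.5 CPM after NanoTLZ. *Tnks1bp1*, which encodes a tankyrase-binding protein, was at 0.38 (SE 0.22). Without A3688, 5 of the 7 genes were below 0 and the median was -0.11, with *Terf1* at -0.79 and *Tnks1bp1* at 0.26.

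Upstream of PARP1, 8 of 11 DNA glycosylase genes were below 0 over both treatments, with a median of -0.36 and 0 called. *Neil3*, a glycosylase of dividing cells, was at -2.18 (SE 0.70, adjusted p = 0.288), with 64.0 CPM in A3688 and 2.71 to 11.2 CPM elsewhere, and was at -0.53 without A3688. *Nthl1*, which removes oxidized pyrimidines, was at 0.41 (SE 0.36). Without A3688, 5 of the 11 glycosylase genes were below 0 and the median was 0.02. Of 7 end-processing genes, 3 were below 0, the median was 0.01 and 0 were called. *Hmgb1*, a chromatin protein, was at -0.84 (SE 0.35), with 462 CPM in A3688 and at most 179 CPM elsewhere. Without A3688 it was at -0.11, 1 of the 7 genes was below 0 and the median was 0.18.

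Of 14 genes for long-patch and replication-coupled repair, 13 were below 0 over both treatments, with a median of -0.75 and 0 called. At an unadjusted p under 0.05, 9 of them were lower, where 8.29% of all genes were. *Rfc5*, a clamp loader subunit, was at -1.45 (SE 0.41, adjusted p = 0.284), with 156 CPM in A3688 and 22.0 to 49.6 CPM elsewhere. *Pold4*, a small subunit of DNA polymerase delta, was the exception at 0.87 (SE 0.40). Without A3688, 12 of the 14 genes were below 0 with a median of -0.30, 3 were lower at an unadjusted p under 0.05, where 4.87% of all genes were, and *Rfc5* was at -0.55.

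All 14 proliferation genes were below 0 over both treatments, with a median of -1.15 and 0 called. At an unadjusted p under 0.05, 13 of them were lower, where 8.29% of all genes were. The 14 genes ran from *Mki67*, a nuclear protein of cycling cells, at -2.17 (SE 0.56, adjusted p = 0.277) to the mitotic kinase gene *Aurka* at -0.50 (SE 0.36, adjusted p = 0.569). *Mki67* was at 940 CPM in A3688, 101 and 286 CPM in the other saline tumors and 54.3 to 160 CPM in the treated tumors. Without A3688 all 14 genes were still below 0, with a median of -0.72, and *Mki67* was at -0.96 and *Aurka* at -0.26. At an unadjusted p under 0.05, 5 of them were lower without A3688, where 4.87% of all genes were. The summed CPM of the list was 980 to 2888 in saline, 441 to 1021 after i.v. TLZ and 681 to 840 after NanoTLZ. The group means of these levels were lower after both treatments, as were those of *Parp1* and *Lig3*, and their part in the differences of both genes was not tested.

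**Figure D5:**
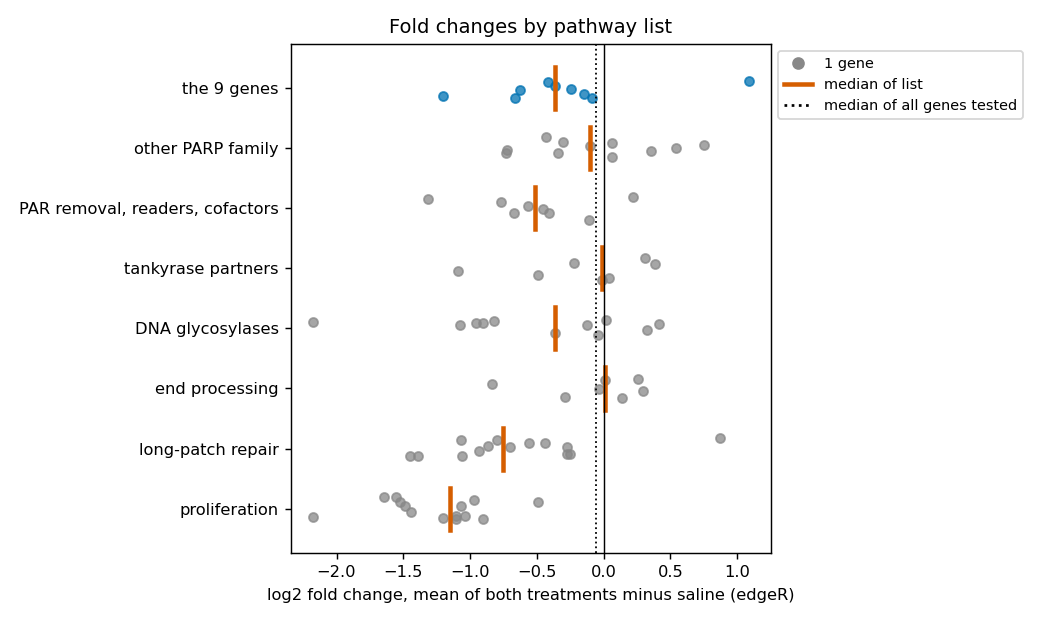
Log2 fold change of both treatments against saline (edgeR) for each tested gene (points) of the 9 genes and 7 lists, with the list median (orange bar) and the median of all genes tested (dotted line). The medians of long-patch repair and proliferation genes, at -0.75 and -1.15, are lower than that of the 9 genes, at -0.36, and no point in these lists passed the test; without A3688 the 3 medians were -0.30, -0.72 and -0.32.

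Markers of other cells also differed between tumors. The 7 fibroblast markers summed to 1446 to 2063 CPM in saline, 990 to 6016 CPM after i.v. TLZ and 1703 to 3100 CPM after NanoTLZ. The 7 immune markers summed to 154 to 595 CPM, 236 to 597 CPM and 536 to 760 CPM, and the 8 epithelial markers to 4203 to 7851 CPM, 5059 to 5868 CPM and 3534 to 5207 CPM in the same order. The 7 skeletal muscle markers summed to 22.3 to 659 CPM in saline and at most 4.07 CPM in any treated tumor, and *Tnnc2* among them was listed at 0 in all tumors but 1. Unlike the repair and proliferation lists, this list held a called gene. Its lowest edgeR adjusted p over both treatments was 0.0207, and without A3688 1 of the 6 tested was called. Endothelial markers summed to 58.6 to 156 CPM in saline, 66.4 to 177 CPM after i.v. TLZ and 151 to 196 CPM after NanoTLZ. Both treated ranges overlapped that of saline, and adipocyte markers were below 48 CPM in sum. Their part in the levels of the 9 genes was not tested.

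Of the genes of the genotype, *Brca1* was at 32.6, 29.6 and 42.7 CPM in saline, 11.8, 9.46 and 31.5 CPM after i.v. TLZ, and 18.4, 18.2 and 19.8 CPM after NanoTLZ. Counts over the whole gene cannot check the deletion, since whole tumors were sequenced and exons were not counted apart. Which cells these *Brca1* counts came from was not tested. Its log2 fold change over both treatments was -0.94 (SE 0.37, adjusted p = 0.338), and 5 of 6 treated tumors were below the lowest saline tumor. Without A3688 it was -0.76. *Trp53* was at 23.4 to 45.6 CPM in saline and 29.4 to 38.9 CPM in 5 treated tumors, with 108 CPM in NanoTLZ 1.

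Across the 9 tumors, the levels of the 9 genes did not form 1 pattern. On log2 CPM, *Parp1* was most like *Lig3* among them (Pearson r = 0.78), *Tnks* was like *Tnks2* (r = 0.68) and *Xrcc1* like *Polb* (r = 0.70). *Tnks* ran opposite to *Xrcc1* (r = -0.82) and *Parp2* (r = -0.75), and *Parp3* opposite to *Polb* (r = -0.69). Each r is over 9 tumors that share treatment groups, and A3688 is at an end of the range for several of these genes.

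Among all tested genes, those most like *Parp1* over the 9 tumors were *Mitd1* (r = 0.99), *Rdh10* (r = 0.98) and the replication licensing gene *Cdc6* (r = 0.97), and those most opposite were *Metrn* (r = -0.98), *Whamm* (r = -0.98) and *Rabac1* (r = -0.97). An r above 0.9 was reached by 45 genes for *Parp1*, 147 for *Parp3*, 117 for *Xrcc1* and 3 for *Parg*, and by 20 to 53 for each of the others. How many genes would reach this r by chance over 9 tumors was not tested, and A3688 was not left out. The nearest to *Parp3* were *Nupr1*, *Ccn5* and *Bst1* (r = 0.97 to 0.98), to *Lig3* *Fsbp*, *Tlr3* and *Ttc3* (r = 0.95 to 0.99), and to *Parp2* *Nynrin*, *Ifit2* and *Fam151b* (r = 0.94 to 0.96). *Tnks* was most like *Mbd5*, *Macf1* and *Cflar*, *Tnks2* like *Cnot7*, *Fastkd2* and *Smchd1*, *Xrcc1* like *Htra2*, *Ric8a* and *Cd2bp2*, *Polb* like *Epha3*, *Elac2* and *Cspg4*, and *Parg* like *Tcf7l1*, *Rasd2* and *Slc6a14*, with r from 0.90 to 0.98.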

How the data were processed

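RNA of 9 tumors was sequenced by Novogene. The file deposited by the authors holds raw counts of reads for each gene, not normalized, and the submitters' processing notes name TopHat2, mm10 and DESeq2. The counting program, annotation and strand setting are not given in the sources used here. Symbols and positions came from the GENCODE annotation of GRCm38 for 34490 of 35275 identifiers, and promoter sequences from RefSeq (GRCm38.p6), which matched 7 of the 9 genes. All 9 columns were used, and none were identical. No source names a sequencing batch.

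Genes were kept by filterByExpr (minimum count 10, minimum total 15), which left 15821. Counts were scaled by TMM, a model with 1 coefficient for each group was fitted jointly to the 9 tumors by the quasi-likelihood test of edgeR 4.0.16 in R 4.3.3, and p-values were adjusted by Benjamini-Hochberg over all genes, with a threshold of 0.05. "Both treatments" is the mean of the 2 treated coefficients. P-values are for a difference between groups, judged against the spread between tumors of the same group. The methods were tested on simulated data. CPM per kb used the merged exon length, and similarity used log2 CPM with a prior count of 2. Python 3.11.15 made the figures.

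Alternatives were DESeq2 1.42.0, limma-voom (limma 3.58.1), edgeR on 2 groups, RLE and upper quartile scaling, other filters and each tumor left out; counts of groups without overlap with a tumor left out, and lists without A3688, were added after seeing the data. The genes named were the 9, *Brca1*, *Trp53*, the ends of each list over both treatments, and the most similar genes. The gene at 1 end of 1 list is not reported here. The 9 genes and the lists were chosen with earlier results of these data known.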

Additional observations from a re-analysis of the deposited data

How the results depend on the processing

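None of the 9 genes was called in any comparison under any alternative run, DESeq2 included. Of the alternative values of their log2 fold changes, 566 kept the direction and 28 did not. Counts of all genes called moved more. For i.v. TLZ against saline, 0 genes were called with edgeR (1643 at an unadjusted p under 0.05), 5 without a filter, and 194 or 92 by DESeq2 on all tumors or 2 groups. For NanoTLZ against saline, 1 gene was called, 6 without a filter, 0 with edgeR on 2 groups, 109 or 171 by DESeq2, and 0 to 3 with a tumor left out. Between the treatments, 0 were called with edgeR (266 at an unadjusted p under 0.05) and 3 or 21 by DESeq2. For both treatments, 3 were called, 33 without a filter, 1 with at least 10 counts in every tumor, 1 with limma-voom, 276 by DESeq2, and 0 to 18 with a tumor left out (18 without saline 1). The causes were not tested. Upper quartile scaling changed the unadjusted calls over both treatments from 760 higher and 1312 lower to 930 and 1024.

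Small differences changed sign. *Tnks* with NanoTLZ was 0.078 with upper quartile scaling and 0.071 with limma-voom. Between the treatments, *Parp3* was 0.019 with limma-voom, and *Parg* was 0.009 with upper quartile scaling and 0.003 without a filter. With 1 tumor left out, *Parp2* ranged from -0.34 to 0.26 with i.v. TLZ, -0.29 to 0.31 with NanoTLZ, -0.32 to 0.29 over both and -0.085 to 0.14 between treatments. *Tnks* ranged from -0.46 to 0.27, -0.25 to 0.42, -0.32 to 0.34 and -0.018 to 0.47 in the same order, and *Xrcc1* from -0.37 to 0.16, -0.52 to 0.012, -0.44 to 0.085 and -0.34 to 0.01. *Polb* ranged from -0.46 to 0.076 with i.v. TLZ. Between treatments, *Parg* ranged from -0.14 to 0.13, *Parp3* from -0.40 to 0.53 and *Tnks2* from -0.038 to 0.39. The positive values of *Parp2*, *Xrcc1* and *Polb* against saline were those without A3688, and those of *Tnks* were largest without saline 1.

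With a tumor left out, the number of the 9 genes without overlap in either direction was 2 to 4 with each treatment (2 with all tumors), 1 to 3 over both treatments (1 with all tumors) and 0 to 3 between treatments (0 with all tumors). The share of all genes without overlap rose too, from 11.2% to at most 26.5% with i.v. TLZ, from 15.9% to 33.8% with NanoTLZ, from 5.47% to 18.9% over both and from 7.61% to 23.2% between treatments. Over both treatments, *Lig3* differed more than *Parp3* with all tumors, but less with upper quartile scaling (-1.12 and 1.17) and limma-voom (-1.21 and 1.37).

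No paired analysis was possible because the labels give no replicate numbers that the groups share. Each of the 9 genes had at least 109 counts in every tumor, so counting error was small beside their biological variation of 28.2% to 52.4%.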

Other observations

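A pair of repair genes outside the 9 lie largely within exons of genes on the opposite strand, and were picked out after their values were seen. *Fen1*, the flap endonuclease of long-patch repair, had only 9 to 35 counts in any tumor, and 78.8% of its exonic length is shared with the antisense gene *Gm10143*, which had 1 to 28 counts. *Apex1*, the main abasic site endonuclease, had 103 to 244 counts, and 61.7% of its exonic length is shared with *Pip4p1*, which had 529 to 1088 counts. Whether reads in shared exons were set aside in the counting was not tested, so the levels of both genes are uncertain.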
